A study of Mus musculus with 29 samples.

Results

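The Hox genes are the homeobox genes of the A, B, C and D clusters, and their levels were followed in the uterus of early pregnancy. Members were all non-control probes named Hoxa, Hoxb, Hoxc or Hoxd with a paralogue number, by the array's own gene name or by the current symbol of the probe's accession. This gave 49 of 41174 probes and 38 of 27670 genes, with 11 genes in cluster A, 10 in B, 8 in C and 9 in D. Where a gene had several probes, the brightest stood for it. The rule uses gene names alone.

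CD-1 mice received genistein, the soy isoflavone that binds estrogen receptors, at 50 mg/kg/day (GEN), or corn oil as the vehicle (CON), on postnatal days 1 to 5. The adult uterus was taken in early pregnancy, before and around implantation of the embryo, on 1 of 4 gestation days (GD). RNA of each sample was hybridised to its own single-channel array: GD1.5 had 4 GEN and 3 CON arrays, GD3.5 had 3 of each (numbered 1, 3 and 4 in GEN), and the later days, GD4.5 and GD5.5, had 4 of each, which makes 29 arrays. The labels do not say that each array was a separate animal or whether animals were pooled, so p-values measure the spread between these samples.

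Hox proteins are transcription factors that bind DNA through the homeodomain, often with cofactors of the Pbx and Meis families. The genes lie along each cluster in the order of their paralogue number, and in development low-numbered genes act towards the head and high-numbered genes towards the tail. In the female tract, Hoxa9, Hoxa10, Hoxa11 and Hoxa13 are known from the patterning of oviduct, uterus, cervix and vagina, and Hoxa10 and Hoxa11 are needed in the adult mouse uterus for implantation and the decidual response of the stroma.

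Levels are log2 intensities relative to the 75th percentile of the array's spots, so 0 marks a bright probe and each unit is a doubling. They compare arrays for the same probe, and levels of different probes are not comparable. A spot well above background, by the scanner's mark, was taken as measured. The share of spots well above background was 65.5 to 80.9% per array, at most 2 spots per array were saturated, and arrays of a group correlated at r = 0.949 to 0.997 across genes. GD1.5 and GD3.5 arrays lay on slides 1 to 4 and GD4.5 and GD5.5 arrays on slides 5 to 8, so GD4.5 cannot be told apart from a slide effect when set against GD3.5, and that step has no test. GD3.5 CON 3 was the only array on slide 4 and the only array of its scan date. All 10 markers of simple epithelium, of endometrial stroma and of smooth muscle were above background on every array, and 4 to 6 of 6 gland markers were.

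The Hoxb3 probe is also listed with an accession of Hoxd3 in the array design. Whether it also binds RNA of related genes was not tested.

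The RefSeq table of promoters (GRCm38.p6) held 22 of the 38 genes. The 250 bases before the start of 4 members called in a comparison below are shown. Hoxa7 was called between exposures and between days, and Hoxb4, Hoxb8 and Hoxd10 between gestation days alone. Capitals mark AGGTCA, the core motif of estrogen and retinoic acid receptors, chosen because genistein binds estrogen receptors. It was searched on both strands and reads as TGACCT on the opposite one. A role of the motif in any change was not tested. The regions are chr6:52218574-52218823 (minus) for Hoxa7, chr11:96318017-96318266 (plus) for Hoxb4, chr11:96281655-96281904 (plus) for Hoxb8 and chr2:74691641-74691890 (plus) for Hoxd10.
Hoxa7: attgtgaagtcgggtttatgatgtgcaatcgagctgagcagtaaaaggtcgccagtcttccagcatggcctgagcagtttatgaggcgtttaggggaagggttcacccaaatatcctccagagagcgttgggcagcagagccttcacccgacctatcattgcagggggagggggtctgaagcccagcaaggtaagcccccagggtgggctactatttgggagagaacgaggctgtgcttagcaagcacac
Hoxb4: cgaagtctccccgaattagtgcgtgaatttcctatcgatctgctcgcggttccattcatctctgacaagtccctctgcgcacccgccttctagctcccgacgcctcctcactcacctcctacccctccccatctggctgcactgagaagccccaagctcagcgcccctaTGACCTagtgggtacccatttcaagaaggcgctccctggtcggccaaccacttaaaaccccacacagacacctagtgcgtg
Hoxb8: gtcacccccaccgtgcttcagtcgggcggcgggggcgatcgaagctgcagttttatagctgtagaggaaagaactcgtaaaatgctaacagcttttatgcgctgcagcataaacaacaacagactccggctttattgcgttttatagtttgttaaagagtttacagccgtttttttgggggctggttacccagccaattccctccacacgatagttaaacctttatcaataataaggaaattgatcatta
Hoxd10: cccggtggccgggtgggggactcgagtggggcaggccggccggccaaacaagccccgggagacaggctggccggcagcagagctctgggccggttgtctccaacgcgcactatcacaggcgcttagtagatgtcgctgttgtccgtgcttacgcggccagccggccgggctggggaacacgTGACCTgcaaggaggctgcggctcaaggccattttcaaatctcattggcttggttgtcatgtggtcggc
The motif began 81 bases before the Hoxb4 start and 69 bases before the Hoxd10 start, and these letters did not occur in the windows of Hoxa7 and Hoxb8. It stood in 6 of the 22 Hox windows (27.3%), those of Hoxb4, Hoxc4, Hoxd3, Hoxd4, Hoxd8 and Hoxd10, and in 13.8% of 27025 promoter windows of the same length. TTTATG, a core recognised by the Cdx factors, stood in 5 Hox windows (22.7%), Hoxa7 and Hoxb8 among them, and in 11.1% of all windows. TGATTNAT, a composite of Pbx and Hox binding, stood in 1 Hox window, that of Hoxa2, and in 2.99% of all windows. Motifs were searched on both strands and overlaps were counted, and a match is a description of the sequence.

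Most of the family was measurable in the adult uterus. Of the 38 genes, 22 were well above background on all 29 arrays (57.9%, against 58.8% of all genes), 13 on some arrays and 3, Hoxb1, Hoxc8 and Hoxc12, on none. Genes present on every array came from all clusters, 6 of 11 in A, 7 of 10 in B, 3 of 8 in C and 6 of 9 in D. Among the genes of highest number, Hoxd13 passed on 1 array and Hoxc13 on 3, and Hoxd1 passed on 4. Hoxa13 and Hoxb13 passed on 15 arrays each, all of them on slides 5 to 8.

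**Figure D1:**
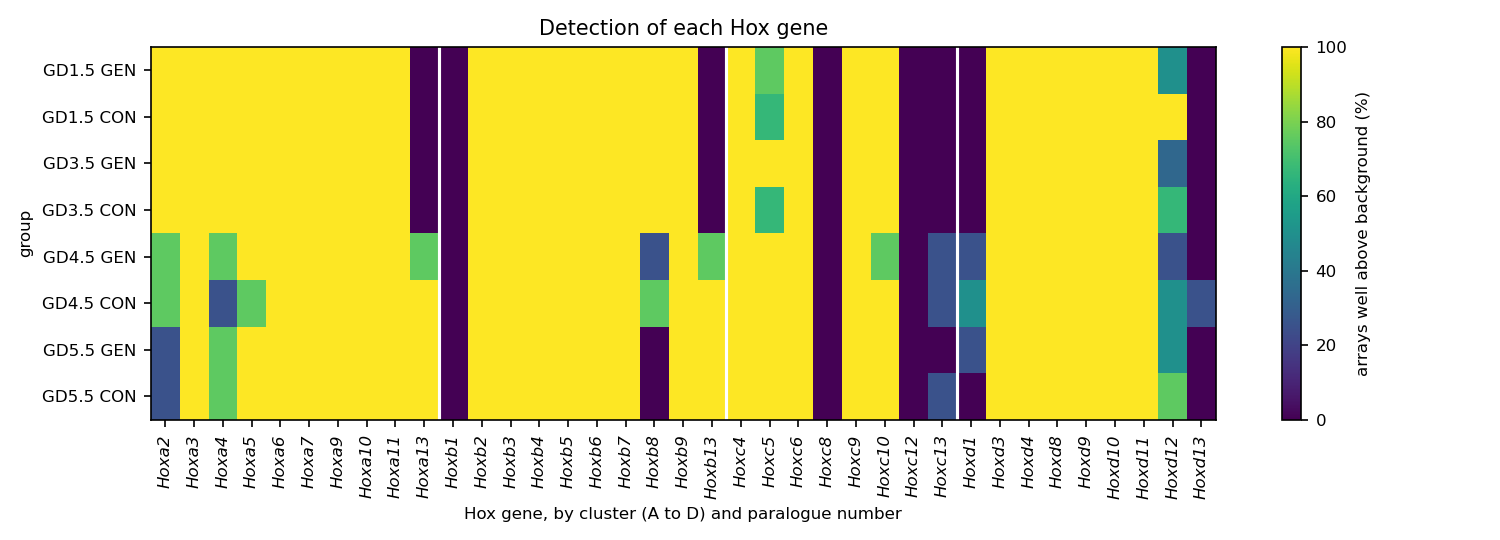
Share of arrays (%, colour) on which each Hox gene shown (horizontal axis, by cluster and paralogue number) was well above background, in each of the 8 groups (vertical axis). Hoxb1, Hoxc8 and Hoxc12 stood at 0 in every group, and Hoxa13 and Hoxb13 at 0 in the GD1.5 and GD3.5 groups.

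Whether neonatal genistein changed the Hox genes was asked on each day. No member passed the test on any single day: GD1.5 had 0 of 30 tested members called, GD3.5 had 0 of 30, GD4.5 had 0 of 33 and GD5.5 had 0 of 30, with limma and Benjamini-Hochberg adjustment over all genes tested. The same rule called 0.0975%, 0.103%, 0.116% and 0% of all genes on these days. At an unadjusted p under 0.05 there were 4, 4, 7 and 2 members, where 6.03%, 5.38%, 9.39% and 5.29% of all genes passed. The median standard error of a member was 0.26 to 0.30 on the log2 scale, and the lowest adjusted p of a member on any day was that of Hoxc10 at GD4.5 (0.326). With array weights, which were estimated with a convergence warning, GD1.5 had 9 called members and GD3.5 had 3. The share of all genes called with these weights is not given here, so those counts are not read as particular to Hox genes. A normexp background correction called 19 members at GD5.5, among 9506 genes in all, and its refit without spots of high local background called 0 members.

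**Figure D2:**
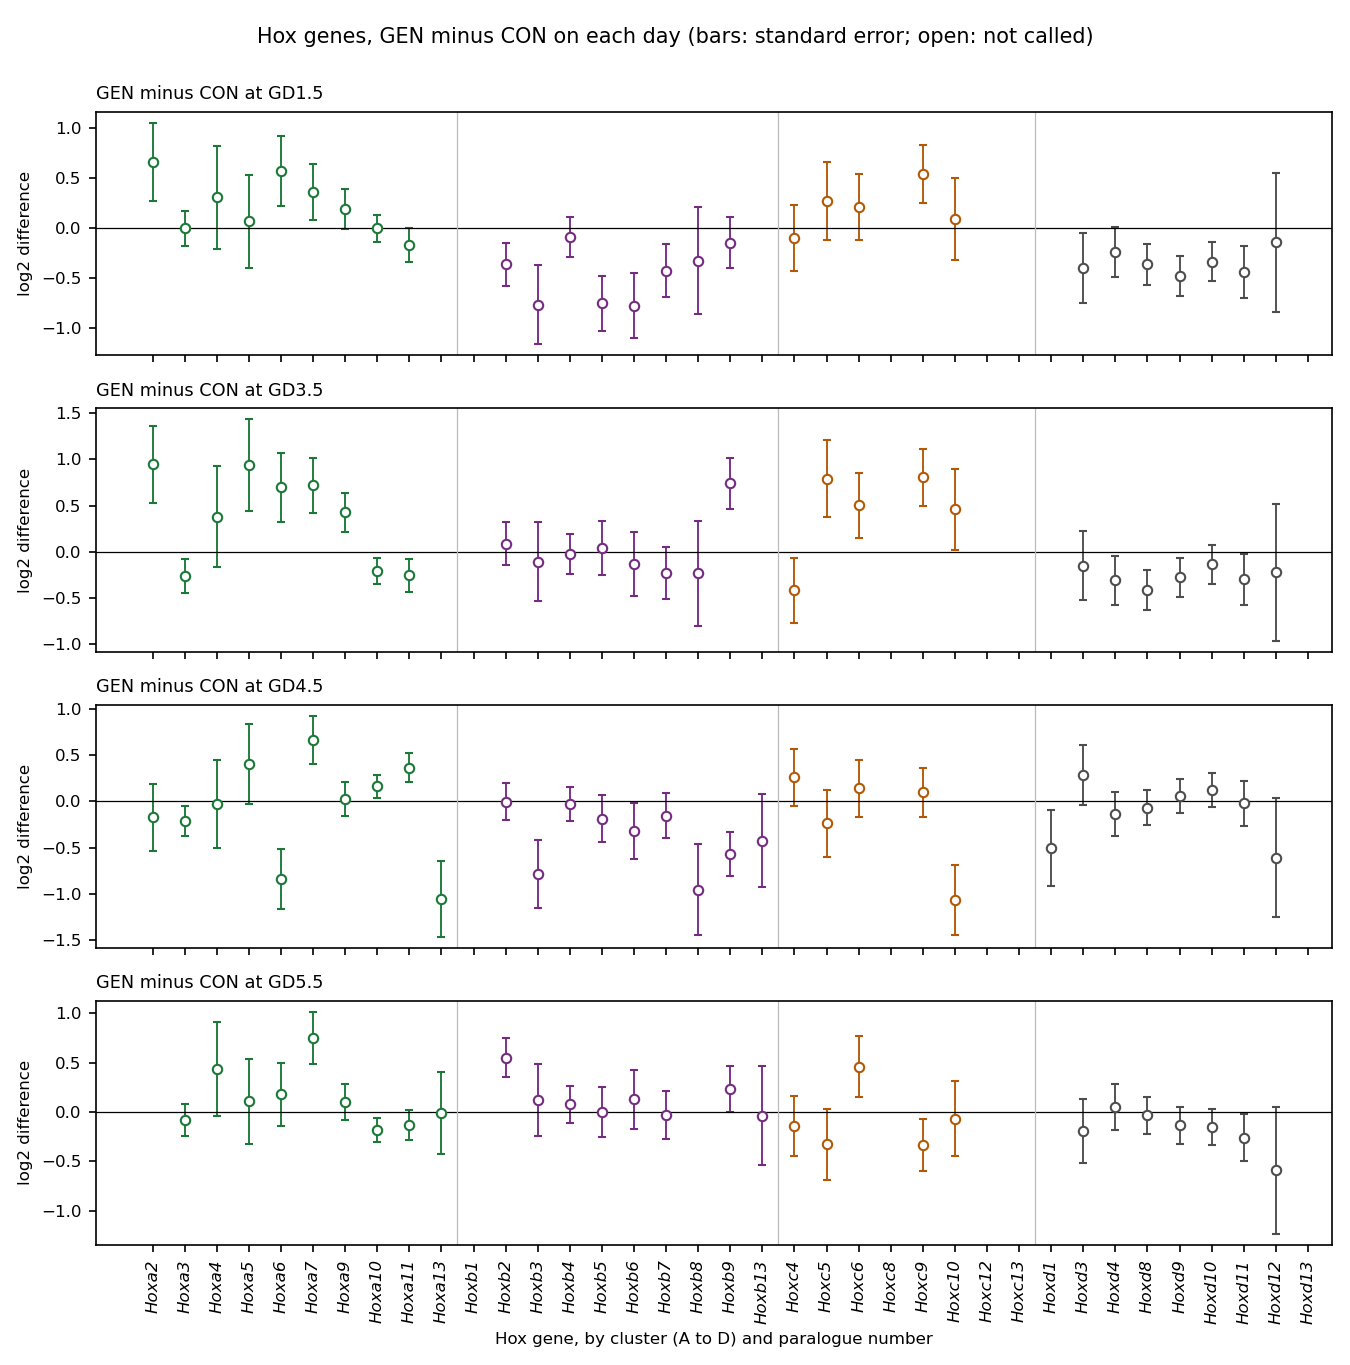
GEN minus CON difference (log2, vertical axes) of the tested Hox genes shown on each of the 4 days, ordered by cluster and paralogue number, with bars for the standard error and open points for genes that were not called. At GD1.5 all 8 tested Hoxb genes and all 7 tested Hoxd genes lay below 0, as did all 7 Hoxd genes at GD3.5 and all 9 Hoxb genes at GD4.5. The count below 0 was 5 of 8 for Hoxb at GD3.5, 5 of 8 for Hoxd at GD4.5 and 6 of 7 for Hoxd at GD5.5. At GD5.5 6 of 8 Hoxb genes lay above 0.

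Hoxb6 and Hoxb3 were among the members with the largest differences at GD1.5, and neither passed. Hoxb6 stood at 2.27, 1.55, 1.36 and 2.32 in GEN, against 2.76, 2.38 and 2.83 in CON (-0.78, SE 0.32, limma adjusted p = 0.665), with no overlap. The other Hoxb6 probe stood at -1.87, -1.96, -1.95 and -1.74 in GEN, against -1.77, -1.67 and -1.74 in CON, a difference of -0.15 (SE 0.18) with overlap. Within the 2 slides that held GEN and CON arrays of that day, the difference on the main Hoxb6 probe was -1.24 to -1.21. Those slides held GEN 2 and GEN 3, while GEN 1 and GEN 4 lay on slide 3, which held no CON array of that day. Hoxb3 stood at -0.77, -1.48, -0.65 and -0.39 in GEN and at 0.19, 0.03 and -0.38 in CON (-0.77, SE 0.40, adjusted p = 0.892 with limma), with no overlap. The tested Hoxb genes had a median difference of -0.40 and the Hoxd genes one of -0.36, with all 15 below 0, while 7 of 10 Hoxa genes lay above 0 (median 0.25), beside a median of -0.01 over all genes tested. Markers of other cells also differed between the groups that day, none of the following lists with a called gene apart from 1 gland marker. The 6 adipocyte markers were all higher in GEN (median 2.48), as were the 6 leukocyte markers (median 0.60), and the 6 gland markers were all lower (median -2.17). The mean level of the gland markers was -2.26, -3.18, -3.15 and -2.55 on GEN 1 to 4, against -3.09, 0.47 and 0.94 in CON, so CON 1 lay within the GEN range. The mean level of the epithelial markers was 3.01, 2.38, 2.48 and 2.99 on GEN 1 to 4, against 2.89, 2.77 and 2.78 in CON. It was lowest on GEN 2 and GEN 3, the arrays with the lowest Hoxb6. On GEN 1 and GEN 4 the epithelial mean lay above every CON array, and Hoxb6 lay below every CON array. The part of these cells in the Hoxb and Hoxd differences was not tested.

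At GD3.5 the largest differences were upward, in Hoxa2, Hoxa5 and Hoxc9. Hoxa2 stood at -4.38, -4.26 and -4.26 in GEN, against -5.72, -4.95 and -5.08 in CON (0.95, SE 0.42, limma adjusted p = 0.827). Hoxa5 stood at -4.51, -4.65 and -4.52 in GEN, against -5.93, -5.45 and -5.12 in CON (0.94, SE 0.50, limma adjusted p = 0.993). Hoxc9 stood at -2.70, -2.18 and -2.49 in GEN, against -3.34, -2.91 and -3.54 in CON (0.80, SE 0.31, limma adjusted p = 0.650). In each of these 3 genes the 3 GEN arrays lay above the 3 CON arrays, and none passed the test. They were picked as the largest differences of the day, which favours such separation. The share of all genes without overlap was not counted.

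At GD4.5 Hoxc10, Hoxa13 and Hoxb8 had the largest fitted differences, all downward. Part of the GEN values behind each was not well above background, so these differences have no exact size or order. Hoxc10, an abdominal-B type gene, stood at -3.91, -3.65, -6.07 and -3.72 in GEN, against -2.54, -3.72, -3.48 and -3.35 in CON (-1.06, SE 0.38, limma adjusted p = 0.326). Hoxa13, the gene of cervix and vagina in the patterned tract, stood at -4.62, -4.12, -6.64 and -4.63 in GEN, against -3.60, -4.21, -3.61 and -4.37 in CON (-1.05, SE 0.41, limma adjusted p = 0.390). The GEN 3 value was not well above background for either gene, and the other GEN arrays overlapped the CON arrays. Hoxb8 was well above background on 1 of 4 GEN and 3 of 4 CON arrays (-6.65, -6.92, -6.30 and -3.93 in GEN, against -4.92, -5.73, -4.42 and -4.91 in CON), with a fitted difference of -0.96 (SE 0.49, limma adjusted p = 0.575). The other probes of Hoxc10 and Hoxb8 read -0.73 (SE 0.47) and -0.42 (SE 0.45), also with some arrays below background. The mean level of 10 squamous markers of cervix and vagina was -4.82 to -4.19 over GEN arrays and -4.86 to -4.33 over CON arrays at GD4.5, with 5 of the 10 above background on GEN 3 and 6 to 9 on the other arrays. Of 9 squamous markers tested, 0 were called and 5 had an unadjusted limma p under 0.05, where 9.39% of all genes passed. Their median difference was -0.46, and 4 of the 9 lay above 0. Their part in the Hoxa13 and Hoxc10 values was not tested.

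At GD5.5 Hoxa7, Hoxd12 and Hoxb2 had the largest fitted differences. Hoxd12 stood at -5.67, -4.15, -5.37 and -7.04 in GEN, against -5.08, -3.77, -5.47 and -5.56 in CON, and 3 of these 8 arrays were not above background. Its fitted difference, which has no exact size, was -0.59 (SE 0.64, limma adjusted p = 1). Hoxb2 stood at 0.15, 0.05, 0.18 and -0.56 in GEN, against -0.86, -0.64, -0.40 and -0.49 in CON (0.55, SE 0.20, limma adjusted p = 0.713), with GEN 4 inside the CON range. Hoxa7 follows below.

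Averaged over the 4 days, with each day given equal weight, 1 of 34 tested members was called, Hoxa7, where 1% of all genes tested were. Hoxa7 codes for a Hox protein of the middle of the trunk. At GD1.5 it stood at 0.70, 1.05, 0.85 and 0.67 in GEN and 0.25, 0.36 and 0.77 in CON. The GD3.5 levels were 0.94, 0.96 and 1.02 in GEN and -0.07, 0.41 and 0.42 in CON. Those of GD4.5 were 0.51, 0.32, 0.26 and 0.59 in GEN and 0.24, -0.82, -0.06 and -0.34 in CON, and those of GD5.5 were -0.48, 0.27, 0.25 and -0.84 in GEN and -1.73, -0.37, -0.72 and -0.97 in CON. The groups did not overlap at GD3.5 and GD4.5, and overlapped at GD1.5 and GD5.5. The difference was 0.36, 0.72, 0.66 and 0.75 on the 4 days, none called alone, and 0.62 on average (SE 0.14, 1.54-fold, limma adjusted p = 0.0246). It was positive within every slide that held GEN and CON arrays of a day, with 0.28 to 0.80 at GD1.5, then 0.61 to 1.01, then 0.31 to 0.60, and 0.14 to 1.61 at GD5.5. The call was lost without GD1.5 CON 2 (adjusted p = 0.0535), GD3.5 CON 1 (0.0621) or GD3.5 GEN 4 (0.051), each with limma. Over the same arrays 5 of 6 gland markers were called lower in GEN (median -1.84), and in bulk tissue fewer cells of a type cannot be told apart from less RNA per cell. The part of the glands in the Hoxa7 difference was not tested.

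The genes known from implantation and patterning of the tract did not pass between exposures on any day. Hoxa10, which stromal cells need to respond to progesterone, stood at 3.25, 3.40, 3.63 and 3.52 in GEN and 3.49, 3.501 and 3.37 in CON at GD1.5, and at 3.54, 3.498 and 3.58 in GEN and 3.54, 3.63 and 4.07 in CON at GD3.5. It stood at 3.93, 3.75, 3.97 and 3.46 in GEN and 3.76, 3.67, 3.47 and 3.57 in CON at GD4.5, and at 3.73, 3.76, 3.79 and 3.83 in GEN and 4.10, 4.03, 3.93 and 3.77 in CON at GD5.5. The GEN minus CON differences of Hoxa10 were -0.01, -0.21, 0.16 and -0.18 (SE 0.12 to 0.14), and the groups overlapped on every day.

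Hoxa11, its neighbour, stood at 4.56, 4.84, 4.86 and 5.04 in GEN and 5.12, 4.92 and 4.96 in CON at GD1.5, and at 4.87, 4.82 and 4.97 in GEN and 5.08, 5.11 and 5.23 in CON at GD3.5, where the groups did not overlap. At GD4.5 it stood at 4.99, 5.13, 4.45 and 4.71 in GEN and 4.74, 4.37, 4.28 and 4.44 in CON, and at GD5.5 at 4.37, 4.43, 4.84 and 4.94 in GEN and 4.54, 5.06, 4.87 and 4.64 in CON. Its GEN minus CON difference was -0.17, -0.26, 0.36 and -0.13 (SE 0.16 to 0.18), below 0 on 3 of the 4 days.

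Hoxa9, known from the oviduct, stood at 0.58, 0.96, 1.16 and 1.03 in GEN and 0.75, 0.74 and 0.74 in CON at GD1.5, and at 1.09, 0.78 and 0.82 in GEN and 0.20, 0.83 and 0.38 in CON at GD3.5. It stood at 0.36, -0.17, 0.54 and -0.08 in GEN and 0.49, -0.29, 0.34 and 0.00 in CON at GD4.5, and at 0.32, 0.26, 0.66 and 0.64 in GEN and 0.28, 0.39, 0.28 and 0.53 in CON at GD5.5. Its differences were 0.19, 0.43, 0.02 and 0.10 (SE 0.18 to 0.21), and the groups overlapped on each day.

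In cluster D, Hoxd9 stood at 0.15, 0.44, 0.26 and 0.92 in GEN and 1.02, 0.94 and 0.81 in CON at GD1.5 (-0.48, SE 0.20, limma adjusted p = 0.658). The groups overlapped through GEN 4. On the later days Hoxd9 stood at 0.78, 0.90 and 0.99 in GEN and 1.23, 1.15 and 1.13 in CON at GD3.5, at 0.92, 0.60, 1.44 and 0.68 in GEN and 1.09, 0.57, 0.89 and 0.86 in CON at GD4.5, and at 0.53, 0.69, 0.18 and 0.68 in GEN and 0.85, 0.22, 0.73 and 0.85 in CON at GD5.5, with differences of -0.28, 0.06 and -0.14. The groups did not overlap at GD3.5, where Hoxd9 was lower in GEN on every array, and overlapped afterwards.

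Hoxd10 stood at 0.97, 1.34, 1.21 and 1.84 in GEN and 1.73, 1.77 and 1.54 in CON at GD1.5, and at 1.29, 1.52 and 1.55 in GEN and 1.66, 1.59 and 1.51 in CON at GD3.5. It stood at 1.72, 1.40, 1.66 and 0.75 in GEN and 1.46, 1.19, 1.21 and 1.17 in CON at GD4.5, and at 2.06, 1.74, 1.48 and 1.96 in GEN and 2.15, 1.80, 1.96 and 1.95 in CON at GD5.5. Its differences were -0.34, -0.13, 0.12 and -0.16, with overlap on each day. Hoxd11 stood at -2.28, -2.14, -1.97 and -1.41 in GEN and -1.17, -1.45 and -1.92 in CON at GD1.5, and at -1.40, -1.33 and -1.33 in GEN and -1.07, -1.13 and -0.97 in CON at GD3.5. It stood at -0.42, -0.57, -0.09 and -1.60 in GEN and -0.40, -0.64, -0.72 and -0.84 in CON at GD4.5, and at 0.13, -0.40, -0.68 and -0.22 in GEN and 0.05, -0.03, -0.01 and -0.13 in CON at GD5.5. Its differences were -0.44, -0.30, -0.02 and -0.26, below 0 on all days, with no overlap at GD3.5 alone, and none passed.

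Hoxd13, the most posterior gene of its cluster, was above background on GD4.5 CON 1 alone, at -5.61, and was not tested. Hoxa13 passed background at GD4.5, described above, and at GD5.5, where it stood at -4.48, -4.33, -4.23 and -3.75 in GEN and -3.81, -4.08, -4.56 and -4.31 in CON (-0.01). Hoxc10 stood at -5.46, -5.35, -5.41 and -5.30 in GEN and -5.87, -5.25 and -5.27 in CON at GD1.5, at -5.02, -4.46 and -4.79 in GEN and -5.17, -5.01 and -5.45 in CON at GD3.5, and at -3.90, -3.77, -2.81 and -3.04 in GEN and -2.90, -3.55, -3.31 and -3.47 in CON at GD5.5, with differences of 0.09, 0.46 and -0.07. None of these passed.

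**Figure D3:**
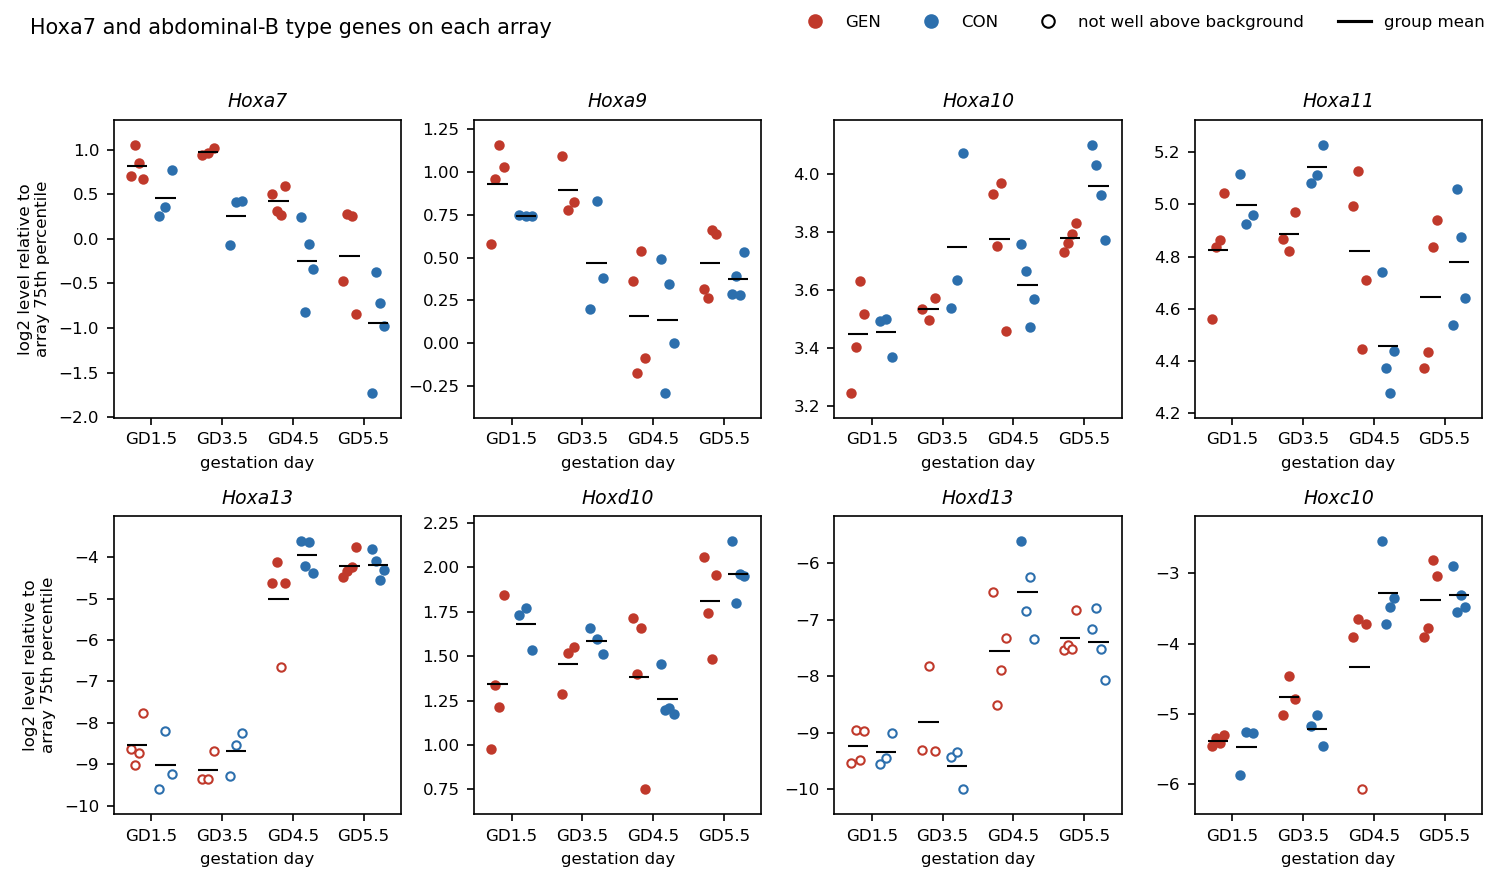
Level of Hoxa7 and of 7 abdominal-B type genes on each array (log2 relative to the array's 75th percentile, vertical axes) by gestation day, with GEN arrays left of CON arrays, lines at group means and open points where the spot was not well above background. Hoxa7 means lay higher in GEN on every day, and Hoxa13 passed background only on the GD4.5 and GD5.5 arrays.

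The exposure effect was not shown to differ between successive days in any member. The difference of effects was called in 0 of 30 members from GD1.5 to GD3.5, 0 of 33 from GD3.5 to GD4.5 and 0 of 34 from GD4.5 to GD5.5, where 0%, 0% and 0.00444% of all genes were called. At an unadjusted p under 0.05 there were 1, 4 and 3 members, where 2.31%, 4.63% and 7.19% of all genes passed. Hoxb9 had the lowest adjusted p from GD3.5 to GD4.5: its GEN minus CON difference was -0.15, 0.74, -0.57 and 0.23 on the 4 days, and the change from GD3.5 to GD4.5 of -1.31 (SE 0.36) had a limma adjusted p of 0.712. The other Hoxb9 probe, above background on all 29 arrays, read -0.13, 0.25, -0.25 and 0.08 on the 4 days.

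Change with gestation day was tested within each exposure, between days that shared slides. At GD3.5 against GD1.5, Hoxb9 was the 1 member of 30 called in GEN uteri, where 4.77% of all genes were called. Hoxb9, the cluster B gene next to Hoxb13, stood at -2.08, -1.90 and -1.84 at GD3.5 against -3.23, -3.74, -3.05 and -2.63 at GD1.5 in GEN, with no overlap (1.22, SE 0.26, 2.34-fold, limma adjusted p = 0.00588). Within the 3 slides that held arrays of both days the rise was 1.09 to 1.66, and the other Hoxb9 probe read 0.85 (SE 0.20) in the same comparison. In CON uteri Hoxb9 stood at -2.58, -3.03 and -2.43 at GD3.5 against -2.88, -3.32 and -2.86 at GD1.5 (0.34, SE 0.27, limma adjusted p = 0.705). In CON no member was called, where 2.33% of all genes were, and 1 had an unadjusted p under 0.05 with limma. The difference between exposures in the Hoxb9 change was 0.89 (SE 0.37) and was not called, with a limma adjusted p of 1. The GEN count was 2 without GD1.5 CON 1 or without GD4.5 GEN 3, and Hoxb9 had an adjusted p of 0.0993 with limma on the compared arrays alone with the replicate number as a block.

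Between GD4.5 and GD5.5, around the time when the decidua forms, most Hoxb genes were lower at the later day. In GEN uteri 7 of 31 tested members were called at GD5.5 against GD4.5, 5 lower and 2 higher, where 21% of all genes were called, and the 8 tested Hoxb genes had a median of -0.74. In CON uteri 12 of 32 were called, 9 lower and 3 higher, where 30.1% of all genes were. Of the 9 Hoxb genes tested in CON 7 were called lower, Hoxb2 to Hoxb8, and all 9 lay below 0 (median -1.10), beside a median over all genes of 0.09 in GEN and 0.02 in CON. The main Hoxb8 probe was above background on no GD5.5 array, so the Hoxb8 call rests on readings below background.

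**Figure D4:**
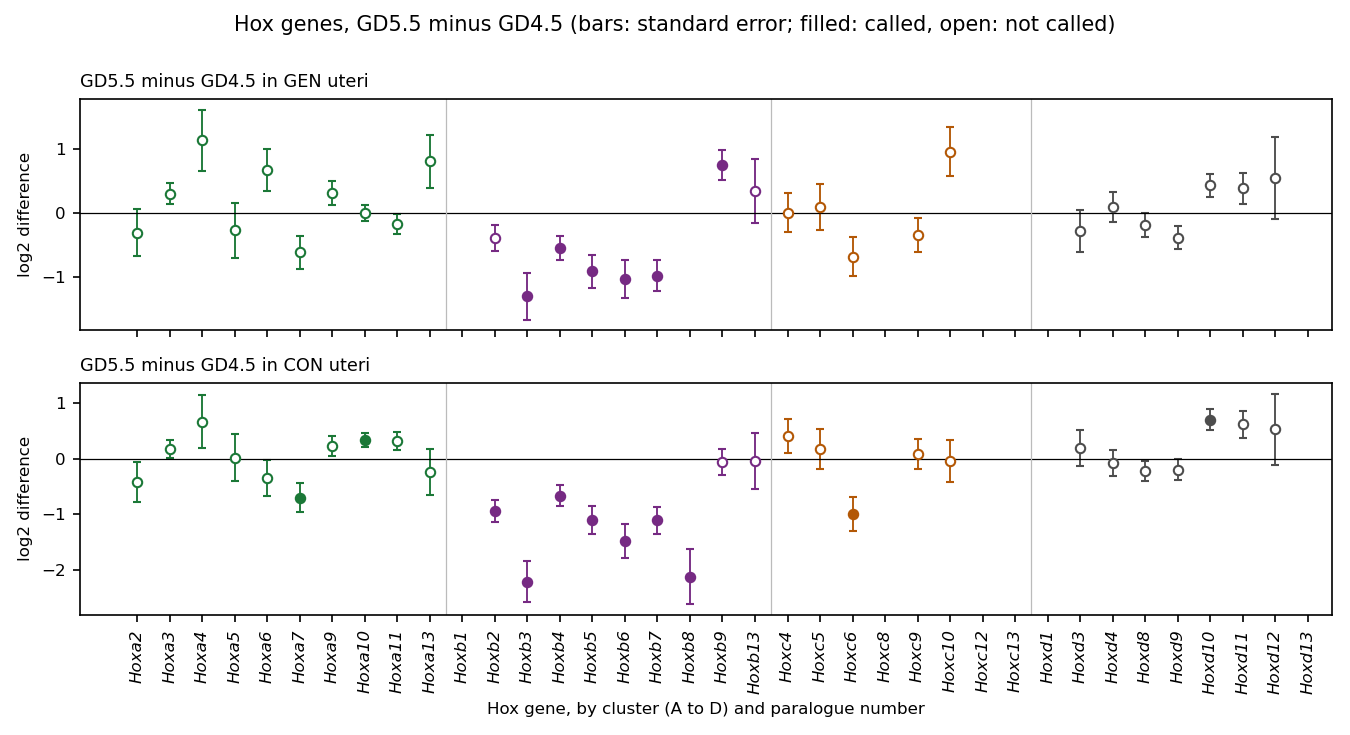
GD5.5 minus GD4.5 difference (log2, vertical axes) of the tested Hox genes shown in GEN uteri (top) and CON uteri (bottom), ordered by cluster and paralogue number, with bars for the standard error and filled points for called genes. The called genes below 0 were Hoxb3 to Hoxb7 in GEN, and Hoxb2 to Hoxb8 with Hoxa7 and Hoxc6 in CON. The GD5.5 readings of Hoxb8 were all below background.

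Hoxb3, an anterior gene of the cluster, stood in GEN at -2.71, -3.06, -2.47 and -3.29 at GD5.5 against -1.94, -2.67, -1.12 and -0.58 at GD4.5 (-1.31, SE 0.37, limma adjusted p = 0.0161). In CON it stood at -2.96, -3.12, -2.94 and -3.00 at GD5.5 against -0.52, -1.58, 0.26 and -1.33 at GD4.5 (-2.21, SE 0.37, limma adjusted p = 0.00013). In GEN 1 array at GD4.5, GEN 2, lay within the GD5.5 range, and in CON the days did not overlap. The difference between exposures in the Hoxb3 change was 0.90 (SE 0.52) and was not called (limma adjusted p = 0.748). On the other slides, at GD3.5, Hoxb3 stood at -0.57, -0.34 and -0.34 in GEN and -0.40, 0.04 and -0.56 in CON.

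Hoxb6 stood in GEN at 1.40, 0.95, 2.13 and 0.68 at GD5.5 against 2.20, 1.41, 2.64 and 3.01 at GD4.5 (-1.03, SE 0.30, limma adjusted p = 0.0187). The CON levels were 0.99, 1.12, 1.14 and 1.38 at GD5.5 against 2.54, 2.33, 2.97 and 2.72 at GD4.5 (-1.48, SE 0.30, limma adjusted p = 0.0008), with no overlap. The other Hoxb6 probe, designed on another sequence record and above background on all 29 arrays, read 0.12 (SE 0.16) in GEN and 0.14 (SE 0.16) in CON, so the fall was seen by 1 of the 2 probes. With the mean over the probes of a gene, Hoxb6 in GEN was -0.45 with a limma adjusted p of 0.0711.

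Hoxb5, a further trunk gene of the cluster, stood in GEN at -1.82, -2.04, -0.97 and -1.98 at GD5.5 against -0.80, -1.61, -0.51 and -0.22 at GD4.5 (-0.92, SE 0.25, limma adjusted p = 0.0146), and the days overlapped. CON uteri stood at -1.82, -1.67, -1.86 and -1.47 at GD5.5 against -0.65, -0.82, -0.35 and -0.58 at GD4.5 (-1.10, SE 0.25, limma adjusted p = 0.00225), with no overlap.

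Hoxb7 stood in GEN at 0.83, 0.99, 1.59 and 0.45 at GD5.5 against 1.85, 1.20, 1.88 and 2.85 at GD4.5 (-0.98, SE 0.24, limma adjusted p = 0.00795), and the days overlapped. In CON it stood at 0.84, 1.13, 0.83 and 1.17 at GD5.5 against 2.12, 1.79, 2.36 and 2.14 at GD4.5 (-1.11, SE 0.24, limma adjusted p = 0.00155), with no overlap.

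Hoxb2, a gene of hindbrain patterning, stood in GEN at 0.15, 0.05, 0.18 and -0.56 at GD5.5 against 0.46, -0.27, 0.42 and 0.78 at GD4.5 (-0.40, SE 0.20, limma adjusted p = 0.156). The CON levels were -0.86, -0.64, -0.40 and -0.49 at GD5.5 against 0.28, 0.11, 0.65 and 0.36 at GD4.5 (-0.95, SE 0.20, limma adjusted p = 0.0011), with no overlap. With the mean over probes Hoxb2 in CON had a limma adjusted p of 0.079. The other probe in that mean lies on the opposite strand of the cluster, so the mean is not a check on the sense probe.

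Hoxb4 stood in GEN at -3.57, -3.42, -3.04 and -3.26 at GD5.5 against -2.78, -3.12, -2.55 and -2.61 at GD4.5 (-0.56, SE 0.19, limma adjusted p = 0.0383). CON uteri stood at -3.21, -3.87, -3.52 and -3.01 at GD5.5 against -2.41, -3.10, -2.81 and -2.62 at GD4.5 (-0.67, SE 0.19, limma adjusted p = 0.00971). Hoxb4 overlapped between days in GEN and in CON, and its GEN difference was 0.52 with normexp background correction and -0.30 with the refit. The CON difference was -0.37 with both and was not called (limma adjusted p = 0.25 and 0.0582), nor was it without GD5.5 CON 2 (0.0503).

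The main Hoxb8 probe was not above background on any GD5.5 array. In GEN it was above background on 0 arrays at GD5.5 and 1 at GD4.5 and was not tested. In CON it stood at -6.74, -7.92, -7.69 and -6.11 at GD5.5, none well above background, against -4.92, -5.73, -4.42 and -4.91 at GD4.5, which is at least 1.71-fold lower. It entered the test through the 3 GD4.5 arrays above background alone. Its call (limma adjusted p = 0.00243) thus rests on GD5.5 readings below background and is not taken as support for a fall. The bound divides the GD4.5 mean by the GD5.5 mean, after each GD5.5 value was raised to the dimmest probe that passed background on its array where that was higher. On the GD1.5 and GD3.5 arrays, which lie on other slides, it stood at -1.52 to -0.64. The other Hoxb8 probe stood between -7.65 and -3.94 over all days and was above background at GD5.5 on CON 3 (-5.05) and CON 4 (-3.94), and its GD5.5 minus GD4.5 difference was 0.34 (SE 0.45) in CON. With the mean over both probes the Hoxb8 difference in CON was -0.89, with a limma adjusted p of 0.105, and with normexp background correction and its refit it was -0.31.

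The Hoxb genes were also measured on the earlier days, on the other slides. Hoxb2 stood at 0.74, 0.10, 0.40 and 0.75 in GEN and 0.89, 0.67 and 1.02 in CON at GD1.5, and at 0.70, 0.97 and 1.02 in GEN and 0.82, 0.72 and 0.89 in CON at GD3.5. Hoxb4, next to Hoxb3, stood at -2.84, -3.04, -3.25 and -3.22 in GEN and -3.26, -3.05 and -2.69 in CON at GD1.5, and at -2.76, -3.13 and -3.16 in GEN and -3.01, -2.81 and -3.16 in CON at GD3.5. The Hoxb5 levels were -0.73, -1.54, -1.55 and -0.88 in GEN and -0.36, -0.63 and -0.28 in CON at GD1.5, and -0.39, -0.63 and -0.73 in GEN and -0.44, -0.61 and -0.82 in CON at GD3.5. At GD1.5 all Hoxb5 values in GEN were below those in CON, and at GD3.5 the groups overlapped. Hoxb6 stood at 2.44, 2.14 and 2.07 in GEN and 2.56, 2.33 and 2.15 in CON at GD3.5. Hoxb7 stood at 2.27, 1.98, 1.90 and 2.07 in GEN and 2.76, 2.44 and 2.25 in CON at GD1.5, and at 1.76, 1.64 and 1.81 in GEN and 1.90, 2.07 and 1.93 in CON at GD3.5. The groups did not overlap at GD3.5, where GEN was lower.

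**Figure D5:**
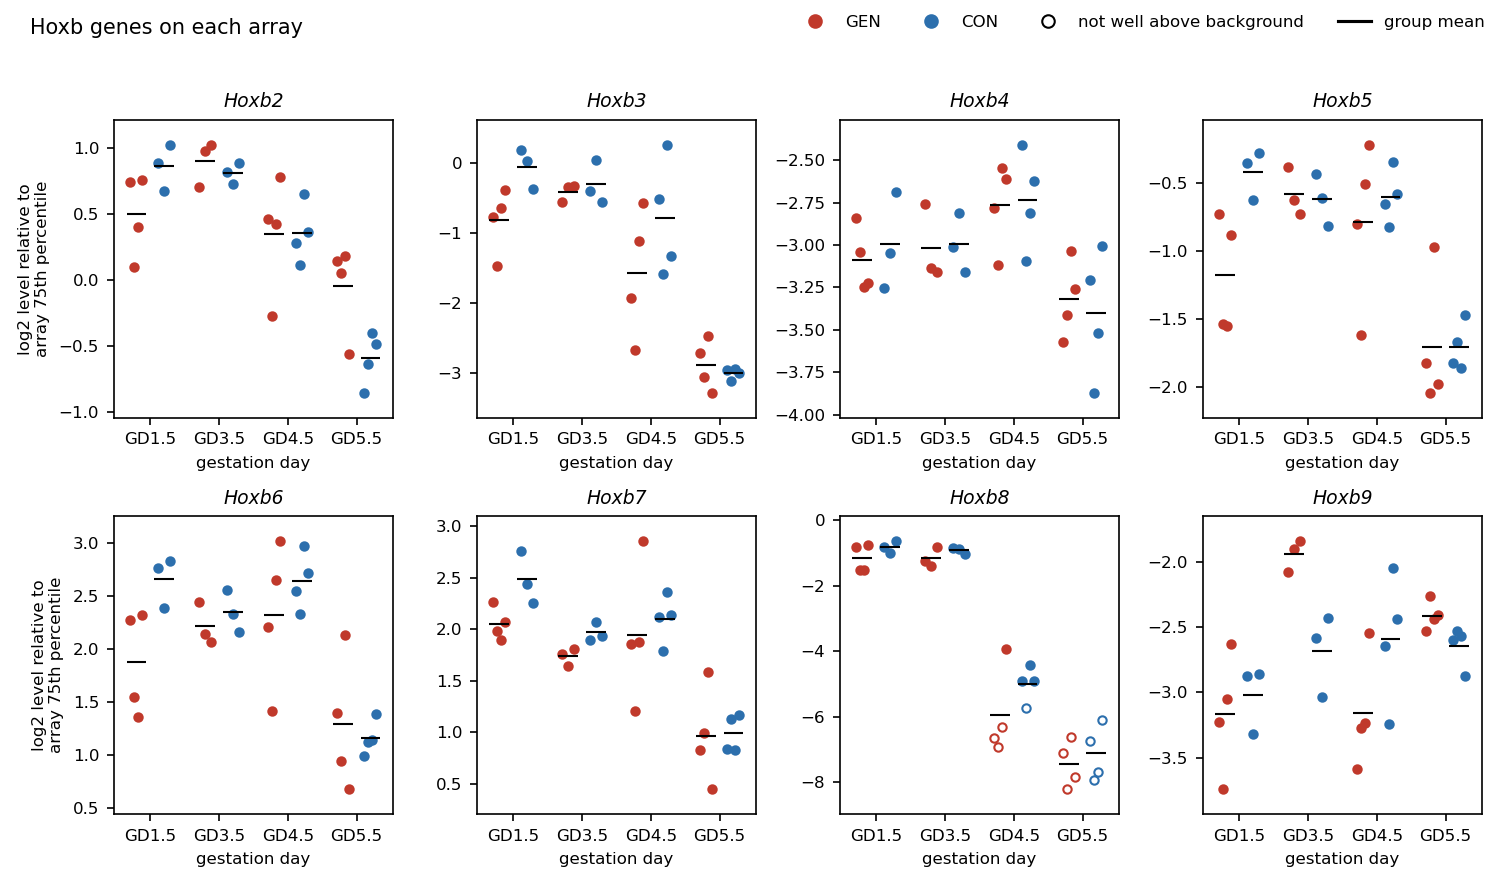
Level of Hoxb2 to Hoxb9 on each array (log2 relative to the array's 75th percentile, vertical axes) by gestation day, with GEN arrays left of CON arrays, lines at group means and open points where the spot was not well above background. From Hoxb2 to Hoxb8 the GD5.5 means lay below the GD4.5 means in GEN and in CON, while Hoxb9 did not show this.

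Hoxb9 and Hoxb13 were not called lower. Hoxb9 stood at -2.53, -2.26, -2.44 and -2.41 at GD5.5 against -3.58, -3.27, -3.24 and -2.55 at GD4.5 in GEN, a rise of 0.75 (SE 0.24, limma adjusted p = 0.0288) with no overlap. The other Hoxb9 probe read 0.22 (SE 0.19) there, and with the mean over probes the limma adjusted p was 0.0743. In CON the main Hoxb9 probe read -0.05 (SE 0.24, limma adjusted p = 0.907), and the difference between exposures, 0.80 (SE 0.33), was not called (limma adjusted p = 0.649).

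Among the called members outside cluster B, Hoxa10 and Hoxd10, genes of the same paralogue group and both abdominal-B type, rose in CON at GD5.5 against GD4.5. Hoxa10 had a difference of 0.00 (SE 0.12) in GEN. The CON levels were 4.10, 4.03, 3.93 and 3.77 at GD5.5 against 3.76, 3.67, 3.47 and 3.57 at GD4.5 (0.34, SE 0.12, limma adjusted p = 0.0364). The Hoxa10 call in CON was lost under 11 of 44 alternatives. With quantile normalization the difference was 0.14 (limma adjusted p = 0.403), and with both normexp fits it was 0.31 (0.109 and 0.0731). The adjusted p was 0.101 with only the arrays compared and 0.0518 to 0.115 without GD4.5 CON 3 or CON 4 or without GD5.5 CON 1, CON 2 or CON 3. The difference between exposures was not called (-0.34, SE 0.17, limma adjusted p = 0.714).

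Hoxd10 differed by 0.43 in GEN (SE 0.18, limma adjusted p = 0.0942). CON uteri stood at 2.15, 1.80, 1.96 and 1.95 at GD5.5 against 1.46, 1.19, 1.21 and 1.17 at GD4.5 (0.71, SE 0.18, limma adjusted p = 0.00545). Neither Hoxa10 nor Hoxd10 overlapped between days in CON.

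Hoxa7 and Hoxc6 fell in CON. Hoxa7 differed by -0.62 in GEN (SE 0.26, limma adjusted p = 0.0933) and by -0.70 in CON (SE 0.26, limma adjusted p = 0.0451), and its CON call was lost under 23 of 44 alternatives. Hoxc6 stood in GEN at -4.72, -3.66, -4.03 and -3.92 at GD5.5 against -3.58, -3.52, -3.52 and -2.97 at GD4.5 (-0.68, SE 0.31, limma adjusted p = 0.112), with no overlap. In CON it stood at -5.07, -3.99, -5.30 and -3.79 at GD5.5 against -3.26, -4.11, -3.04 and -3.75 at GD4.5 (-1.0, SE 0.31, limma adjusted p = 0.0166), with overlap, and with normexp background correction and its refit it was -0.37. The Hoxc6 call was lost under 9 of 44 alternatives, among them leaving out GD4.5 CON 1 or CON 3 or GD5.5 CON 1 or CON 3 (adjusted p = 0.054 to 0.0724 with limma).

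The counts of called Hox genes between these days changed with single libraries and with the fit. The GEN count of 7 was 11 without GD4.5 GEN 2, 3 without GD4.5 GEN 3 or GEN 4, and 4 without GD5.5 GEN 2 or GEN 4. The CON count of 12 was 7 without GD4.5 CON 3. With slide as a fixed block, or with only the arrays of the groups compared, 0 members were called in GEN. The share of all genes called under these alternatives is not given here, so the changes in count are not read as particular to Hox genes. Of 44 alternatives, the GEN calls were lost under 4 for Hoxb7, 7 for Hoxb5, 8 for Hoxb3, 9 for Hoxb6, 10 for Hoxb9 and 12 for Hoxb4. Hoxb4 reversed under 1 more, the normexp background correction. In CON Hoxb3, Hoxb5, Hoxb6 and Hoxb7 stayed called under all 44 alternatives. Of these, 29 left out a single array, often of a group not compared, which leaves the difference itself unchanged. The other Hoxb6 probe did not show the fall, as given above.

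Markers of epithelium were lower at GD5.5 as well, and those of other cells did not all go 1 way. The share of all genes called, in either direction, was 21% in GEN and 30.1% in CON, and several of the counts below were near it. All 10 markers of simple epithelium had negative differences at GD5.5 against GD4.5, with 4 called lower in GEN (median -0.62) and 6 called lower in CON (median -1.15). Of 10 smooth muscle markers 1 was called lower and 1 higher in GEN (median -0.20), and 6 lower and 1 higher in CON (median -0.63). Stromal markers had 2 lower and 1 higher in GEN (median -0.03), and 4 lower and 4 higher in CON (median 0.19). Of 6 endothelial markers 1 was called lower in GEN (median -0.07), and 2 lower and 2 higher in CON (median 0.08). All 6 oviduct markers had negative differences, with 3 called lower in GEN (median -1.13) and 3 in CON (median -1.29). Of the gland markers limma called 0 of 5 in GEN (median -0.28), with 3 at an unadjusted p under 0.05, and 2 of 6 lower in CON (median -1.0). Of the 6 leukocyte markers limma called 0 in GEN (median -0.40), with 1 at an unadjusted p under 0.05, and 2 lower in CON (median -0.77). The 6 adipocyte markers had medians of -1.88 in GEN and -1.68 in CON, with 0 called by limma and 1 and 0 at an unadjusted p under 0.05.

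Epithelial markers and Hoxb genes were set side by side on each array. The mean level of the epithelial markers on GEN 1 to 4 was 1.08, 0.88, 1.65 and 0.50 at GD5.5 against 1.43, 0.79, 2.15 and 2.94 at GD4.5. The median deviation of the 7 Hoxb genes measured on all arrays, each from its own mean over 29 arrays, was -0.63, -0.76, 0.01 and -0.99 at GD5.5 and 0.12, -0.61, 0.21 and 0.75 at GD4.5 on these GEN arrays. In CON 1 to 4 the epithelial mean was 0.89, 0.97, 1.07 and 1.02 at GD5.5 against 2.18, 1.97, 2.73 and 2.40 at GD4.5, and the Hoxb median was -0.91, -0.83, -0.87 and -0.59 against 0.37, -0.05, 0.65 and 0.39. The arrays took the same order by both measures in the GD5.5 GEN, GD4.5 GEN and GD4.5 CON groups. They did not in the GD5.5 CON group or in any group of GD1.5 or GD3.5. At GD3.5 the epithelial mean on CON 1 to 3 was 2.30, 2.51 and 2.33, and the Hoxb median was 0.47, 0.32 and 0.18. The part of the epithelium and of the other cells in the Hoxb change was not tested.

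Cofactors and regulators of the Hox genes were taken as lists. None of 9 Pbx, Meis and Pknox cofactors, 20 Polycomb and trithorax regulators or 7 to 8 tested upstream regulators (Cdx, retinoid and Gdf11 genes) was called between GEN and CON by limma on any day or on average. On average over the days, 2 cofactors, 0 Polycomb and trithorax genes and 1 upstream regulator had an unadjusted p under 0.05. At GD5.5 against GD4.5, Meis3 fell by 0.73 in GEN (SE 0.15, limma adjusted p = 0.00267) and by 1.26 in CON (SE 0.15, limma adjusted p = 4.56e-06), and Pbx2 rose by 0.40 in CON (SE 0.12, limma adjusted p = 0.0112). Of the 9 cofactors 1 was called in GEN, where 21% of all genes were, and 2 in CON, where 30.1% were.

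Of the Polycomb and trithorax genes, whose products keep Hox clusters silent or active, 4 of 20 were called in GEN, all higher, beside the 21% of all genes, and 9 in CON, 6 higher and 3 lower, beside 30.1%, at GD5.5 against GD4.5. The cofactor counts in both and the GEN count here were near or under the share over all genes. All values here are log2 differences. The largest was Cbx2, a Polycomb reader of histone methylation, higher by 2.06 in GEN and 2.89 in CON (SE 0.24 each). Cbx8, of the same family, was higher by 0.99 in GEN and 1.61 in CON. Cbx7, which shares their chromodomain, fell by 1.26 in CON (SE 0.31). Of 7 tested upstream regulators 1 was called in GEN and 3 in CON. The retinoic acid receptor gene Rara was higher by 1.02 in GEN. The genes Cyp26b1, which clears retinoic acid, Rarb, a receptor, and Aldh1a2, which makes it, were higher by 2.63, 1.29 and 0.65 in CON.

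Among 9 genes reported downstream of Hoxa10 or Hoxa11, none was called between GEN and CON by limma on any day or on average, and 2 had an unadjusted p under 0.05, both at GD4.5. At GD5.5 against GD4.5, 3 of 9 were called higher and 2 lower in GEN, beside 21% of all genes called in either direction, and 5 higher and 1 lower in CON, beside 30.1%. Bmp2 and Wnt4, signals of the decidual response, were higher by 3.18 and 2.93 in GEN and by 4.30 and 3.95 in CON, and Ptger3, a prostaglandin receptor, differed by -1.50 in GEN and -2.38 in CON. Cdkn1c, a cell cycle inhibitor, was higher by 1.34 in GEN and 1.26 in CON.

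Other patterning genes of the tract were tested too. On average Foxa2, a gland transcription factor, was lower in GEN (-1.40, SE 0.20, limma adjusted p = 0.000472).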

How the data were processed

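Per the file headers, the authors extracted green intensity with Agilent Feature Extraction 9.5 from Cy3-labelled cRNA, made from 500 ng of total RNA per the labels' protocols. The authors' deposited series table gives identical intensity values (they differ by at most 0%). Levels are log2 intensity minus that of the array's 75th percentile over non-control spots. Spots that the scanner software marked as outliers were left out, and repeated spots were averaged. The number of arrays per group limits the precision.

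Group means of 29 arrays were fitted with limma 3.58.1 (R 4.3.3). A gene was tested where 3 or more of the compared arrays had it well above background, and was called at an adjusted p under 0.05. Hox genes were named if called, if listed as abdominal-B type genes of the tract, or if among the 3 largest differences of a day; up to 4 called genes of each list were named. Members and lists were chosen with earlier results of these data known. In simulated GEN minus CON data at GD5.5 over 20827 genes, 63% of genes changed by 1 and 93% of those changed by 2 were called. The 200 changed genes were all above background on all 29 arrays. These shares therefore do not apply to dimmer genes, or to data in which few genes change. Probe coordinates are of build NCBI35, from the array files. Some genes and sequences are not reported here, and counts include those genes. Figures were drawn with matplotlib 3.10.9.

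Same-numbered GEN and CON arrays deviated together at GD5.5 (correlation 0.33 to 0.43 over 4 pairs), which meets the rule for pairing. The GD5.5 differences and p-values above nevertheless come from the fit without pairs. In pairs 1, 2 and 4, which each shared a slide, pairing cannot be told apart from a slide effect. Pair 3 (0.35) did not share a slide. On the other days and between days at least 1 pair lay under 0.1, and those numbers were not taken as pairs. Alternatives covered background, scaling, filters, probes, blocks, weights and left-out arrays.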

Additional observations from a re-analysis of the deposited data

Results flagged for a closer look

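Among the 24 named Hox genes in groups of 4 arrays, 5 of 120 sets held an array whose gap to the nearest other, as a share of the group's range, was over Dixon's critical value; chance alone flags about 1 in 20 such groups. Hoxc10 stood at -6.07 on GD4.5 GEN 3, not above background, with the other 3 arrays at -3.91 to -3.65. Hoxc6 stood at -2.97 on GD4.5 GEN 4, with the others at -3.58 to -3.52. Hoxc9 stood at -3.07 on GD1.5 GEN 3, with the others at -3.44 to -3.40. Hoxd10 stood at 1.46 on GD4.5 CON 1, with the others at 1.17 to 1.21. Hoxd13 stood at -6.84 on GD5.5 GEN 4, with the others at -7.54 to -7.45, none of the 4 above background.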

How the results depend on the processing

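Counts of called Hox genes moved as follows. At GD5.5 against GD4.5 in GEN, the 7 calls were 20 with normexp background correction, 0 with slide as a fixed block, 0 with only the arrays compared, 0 with that and the replicate block, 3 with array weights and 3 with an added log2 difference of at least 1; leaving out an array gave 3 to 11. In CON the 12 were 6 with normexp and 6 with the added log2 difference, and 7 to 13 without an array. At GD3.5 against GD1.5 in GEN, the 1 call was 2 with slide as a fixed block, with only the arrays compared and with the second normexp fit, 8 with array weights and 0 with the replicate block and only the arrays compared; leaving out an array gave 1 to 2. In CON the 0 was 2 with array weights. Between exposures, array weights gave 9 at GD1.5 and 3 at GD3.5, normexp gave 19 at GD5.5 (18 higher and 1 lower, with 9506 genes in all), and the average over days had 0 with the added log2 difference and 0 to 1 without an array. The array weights were estimated with a convergence warning. Apart from the 9506 genes given above, the share of all genes called under the settings of this section is not given here. These counts are therefore not read as particular to Hox genes. All other counts stayed within 1.5 times, and the replicate block on all arrays changed no count: 0, 0, 0 and 0 on the 4 days.

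Hoxb4 at GD5.5 against GD4.5 in GEN reversed to 0.52 with normexp (adjusted p = 0.0402 with limma). That fit put the fifth percentile of 5 arrays at 153.7 to 540, against 59.1 to 85.5 on the others, and gave medians over all genes of 0.36 in that comparison and 0.28 between exposures at GD5.5, against 0.09 and -0.01 without it. Fitted again without spots whose local background was over 1.5 times the array's median, an alternative added after seeing the data, it gave 59.1 to 70.8 on all arrays, 8 calls in GEN, 8 in CON and 0 between exposures at GD5.5; Hoxb4 in GEN was then -0.30. Hoxa7, Hoxa10, Hoxb4, Hoxb8 and Hoxc6 in CON were not called with either normexp fit, and Hoxb3 (-0.29) and Hoxb5 (-0.40) in GEN were not called with the first. The fit with only the arrays compared and the replicate block was added too. The authors' value table gave no alternative, its values being identical. Probes below background limit Hoxb8, Hoxd12 and the genes of paralogue number 13.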

Other observations

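The other probes of a gene did not always follow the main probe. A probe of Hoxb2 that lies on the opposite strand of the cluster (chr11:96459585-96459644, NCBI35) read 1.72 (SE 0.50) at GD5.5 against GD4.5 in GEN and -0.64 (SE 0.50) in CON, where the sense probe of Hoxb2 read -0.40 in GEN and -0.95 in CON. The dimmer Hoxa3 probe, above background on all 13 GD1.5 and GD3.5 arrays and on none of the later days, read 0.82 (SE 0.39) for GEN minus CON at GD1.5 and 0.90 (SE 0.41) at GD3.5, and the main Hoxa3 probe read -0.00 (SE 0.17) and -0.27 (SE 0.18). These probes were singled out after their values were seen.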
